A study of Homo sapiens with 4 samples.

Results

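Genes tied to the epithelial-mesenchymal transition (EMT) were followed across the series: the transcription factors SNAI1, SNAI2, ZEB1, ZEB2, TWIST1 and TWIST2, and the mesenchymal markers VIM, FN1, TGFBI and CD44. They were chosen by symbol, and all 10 were found, each in a single row, among 35979 symbols. The cells were NCI-H1048, a small cell lung cancer line of the tuft cell-like subtype, in which the tuft cell factor POU2F3 is expressed. A library came from cells with a non-targeting guide RNA (gRNA, genotype WT), which served as the control. Another came from cells with POU2F3 gRNA (genotype POU2F3 knockout), and 2 came from cells with COLCA2 gRNA (genotype COLCA2 knockout), each with its own guide. COLCA2 encodes a coactivator of POU2F3. The 4 libraries shared the line, and the labels list no treatment. Whether the cells were clones or pools, and whether the libraries came from separate cultures, is not stated in the sources used here, so the spread between the COLCA2 guides may be technical.

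EMT is the programme by which epithelial cells loosen their junctions and take on the matrix, cytoskeleton and motility of mesenchymal cells. SNAI and ZEB proteins are zinc finger repressors that bind E-box sequences in epithelial genes such as CDH1, and TWIST proteins are basic helix-loop-helix factors. TGF-beta is a well known inducer of these factors, and cells in EMT make more vimentin and fibronectin. Small cell lung cancer cells that lack neuroendocrine features often carry mesenchymal ones.

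The libraries held 21587741 to 29632382 reads in genes, and 14940 genes reached a mean normalized count of 20. The targeted gene POU2F3 stood at 14602 in the control, 1449 after POU2F3 gRNA, and 3677 and 2351 after COLCA2 gRNA 1 and 2, while COLCA2 stood at 5585, 1393, 3119 and 3541. All ratios share the 1 control library, so they lack a replicate check. Intervals are 95% intervals of read ratios, exact (Clopper-Pearson), and cover counting error only. Log2 ratios were taken after adding a pseudocount of 1, which understates changes of low genes. In bulk RNA, fewer cells of a type and less RNA per cell cannot be told apart.

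SNAI2, FN1, TGFBI and CD44 were at least 2-fold above the control in all 3 perturbed libraries, a rise that 4.89% of all genes showed. VIM rose 2-fold after POU2F3 gRNA alone. Thus 5 of the 10 genes rose after POU2F3 gRNA, beside 6.73% of all genes, and 4 rose with both COLCA2 guides, beside 5.79%. No member was 2-fold lower, beside 3.05% of all genes after POU2F3 gRNA and 2.02% with both COLCA2 guides. TWIST2 did not reach the expression minimum, and TGFBI reached it only through the perturbed libraries, so a difference was built into its passing. ZEB1, just under 20 in the control, also passed through those libraries.

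**Figure D1:**
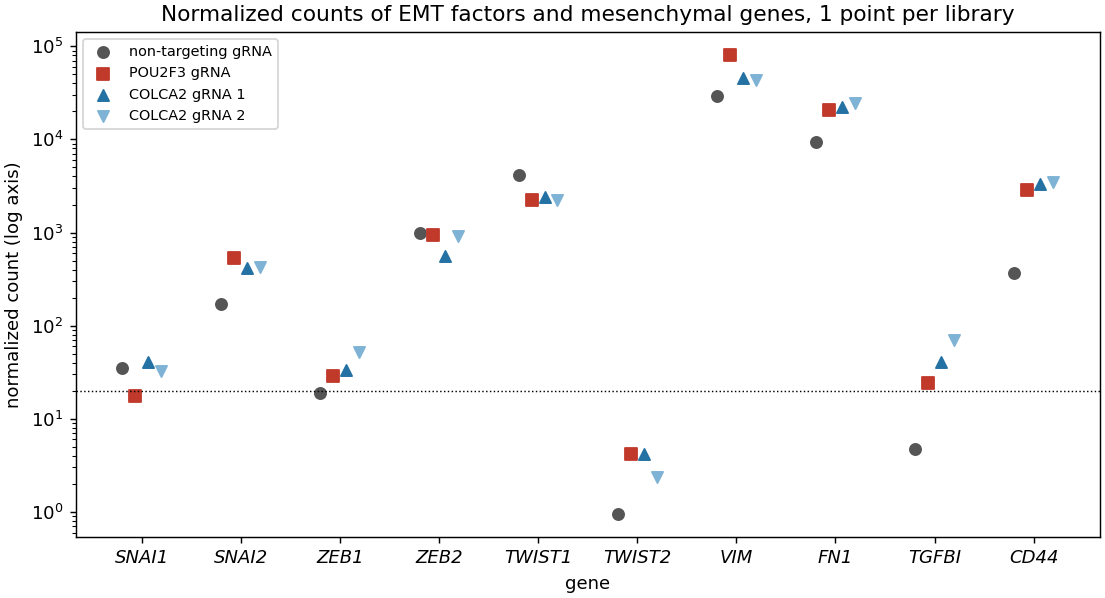
Normalized count (log axis) of each gene, 1 point per library, with a dotted line at the expression minimum of 20. The control lies below all perturbed libraries for SNAI2, ZEB1, TWIST2, VIM, FN1, TGFBI and CD44, and above them for ZEB2 and TWIST1.

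The sequences upstream of FN1, TGFBI and VIM are shown because these genes encode proteins by which EMT is scored and all 3 rose after POU2F3 gRNA. They are taken from the 250 bases before the RefSeq start (GRCh38.p14), less any base inside the GENCODE gene, 5′ to 3′ on the gene's strand: chr2:215436173-215436318 (minus, 146 bases), chr5:136028738-136028894 (plus, 157 bases) and chr10:17227991-17228240 (plus, 250 bases). The CD44 window lies wholly inside the GENCODE gene and is not shown. Capitals mark the GC box (GGGCGG or CCGCCC), the CCAAT box (CCAAT or ATTGG), TATA letters (TATAA or TTATA) and the cAMP response element (TGACGTCA).
FN1: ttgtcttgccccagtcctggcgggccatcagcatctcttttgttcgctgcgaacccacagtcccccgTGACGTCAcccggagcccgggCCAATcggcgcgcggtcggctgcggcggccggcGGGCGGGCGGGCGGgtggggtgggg
TGFBI: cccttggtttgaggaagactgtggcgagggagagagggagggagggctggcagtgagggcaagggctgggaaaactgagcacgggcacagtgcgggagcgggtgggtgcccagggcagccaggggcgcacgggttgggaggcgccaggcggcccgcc
VIM: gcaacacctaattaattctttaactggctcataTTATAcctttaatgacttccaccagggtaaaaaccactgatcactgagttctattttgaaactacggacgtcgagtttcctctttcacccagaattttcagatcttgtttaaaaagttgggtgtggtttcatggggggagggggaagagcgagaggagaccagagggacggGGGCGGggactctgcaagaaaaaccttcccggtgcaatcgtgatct

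The FN1 line holds the cAMP response element 183 bases and the CCAAT box 162 bases before the RefSeq start, and 3 overlapping GC boxes. The VIM line holds 1 GC box and TATA letters 217 bases before the start, and the TGFBI line holds 0 of these motifs. Over the whole windows, FN1 had 6 GC boxes and TATA letters 28 bases before the start, TGFBI had 3 GC boxes and CD44 had 2. Of 35116 windows of 250 bases, 1.65% hold the cAMP response element, 32.0% the CCAAT box, 18.9% TATA letters and 42.6% a GC box. The octamer of POU factors, ATGCAAAT or ATTTGCAT, was in 0 of the 13 windows of the 7 members in the RefSeq table, and in 1.63% of all windows. Most of these 13 windows were those of ZEB1, and SNAI1, SNAI2 and TWIST1 had no window. TEAD letters (GGAATG or CATTCC, 11.9% of all windows) and AP-1 letters (TGANTCA, 6.57%) were also in 0 of the 13. The E-box of SNAI and ZEB factors, CAGGTG or CACCTG, was in 2 of the 13, both of ZEB1, and in 17.5% of all windows. Both strands were searched, and a match describes letters only.

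CD44 is the hyaluronan receptor and a frequent marker of mesenchymal and stem-like tumour cells. CD44 (ENSG00000026508) lies on the plus strand of chromosome 11, from 35138870 to 35232402 (GRCh38, as for the genes below). Its normalized counts were 365 in the control, 2885 after POU2F3 gRNA, and 3327 and 3509 after COLCA2 gRNA 1 and 2. The control stood far below the perturbed libraries, which lay close together. CD44 was 7.91-fold higher after POU2F3 gRNA (interval 7.11 to 8.81), and its mean log2 ratio for the COLCA2 guides was 3.22 ± 0.054 (SD, n = 2). By size of rise it ranked 152 of 14940 genes after POU2F3 gRNA and 169 for the guides' mean. After POU2F3 gRNA it was 0.867 of the level for COLCA2 gRNA 1 (interval 0.826 to 0.910) and 0.822 of that for COLCA2 gRNA 2 (interval 0.782 to 0.864). Likeness of profiles was measured as the Euclidean distance over the 3 log2 ratios, among 12004 genes with a mean of at least 100. Nearest to CD44 were IGFBP7 (0.039) and TGFB2 (0.090).

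FN1 encodes fibronectin, a matrix glycoprotein bound by integrins. FN1 (ENSG00000115414) lies on the minus strand of chromosome 2, from 215360440 to 215436172, and its normalized counts were 9408 in the control, 20729 after POU2F3 gRNA, and 22441 and 24711 after COLCA2 gRNA 1 and 2. The perturbed libraries were closer to each other than to the control. FN1 was 2.20-fold higher after POU2F3 gRNA (interval 2.15 to 2.26), and the guides gave a mean log2 ratio of 1.32 ± 0.098 (SD, n = 2). Nearest in profile were CALD1 (0.046), which encodes the actin-binding protein caldesmon, and CD59 (0.060).

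TGFBI encodes a secreted matrix protein induced by TGF-beta. TGFBI (ENSG00000120708) lies on the plus strand of chromosome 5, from 136028895 to 136063818. It rests on few reads: 5 in the control, 29 after POU2F3 gRNA, and 39 and 60 after COLCA2 gRNA 1 and 2. Its normalized counts were 4.77, 24.3, 40.4 and 70.6 in that order, lowest in the control and uneven among the others. The ratio to the control was 5.10 after POU2F3 gRNA (interval 1.95 to 16.9), 8.47 for COLCA2 gRNA 1 (interval 3.34 to 27.5) and 14.8 for COLCA2 gRNA 2 (interval 5.99 to 47.2). A pseudocount of 10 turned its log2 ratio of 2.13 after POU2F3 gRNA into 1.22, and the guides' mean of 3.24 ± 0.56 (SD, n = 2) into 2.11. The nearest profiles were farther away, S100A10 at 0.50 and AQP3 at 0.53.

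VIM encodes vimentin, the intermediate filament protein of mesenchymal cells. VIM (ENSG00000026025) lies on the plus strand of chromosome 10, from 17228259 to 17237593. Its normalized counts were 29301 in the control, 80266 after POU2F3 gRNA, and 45314 and 42971 after COLCA2 gRNA 1 and 2. POU2F3 gRNA stood apart from both COLCA2 guides, which lay above the control by less than 2-fold. VIM was 2.74-fold higher after POU2F3 gRNA (interval 2.70 to 2.77), against 1.55-fold (interval 1.52 to 1.57) and 1.47-fold (interval 1.44 to 1.49) for COLCA2 gRNA 1 and 2. Set against the guides directly, POU2F3 gRNA gave 1.77-fold and 1.87-fold more VIM, while the guides differed 1.05-fold. The gap exceeded the spread between guides, with 1 library on the POU2F3 side. CT75 (0.15) and ANKRD34B (0.20) had the nearest profiles.

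**Figure D2:**
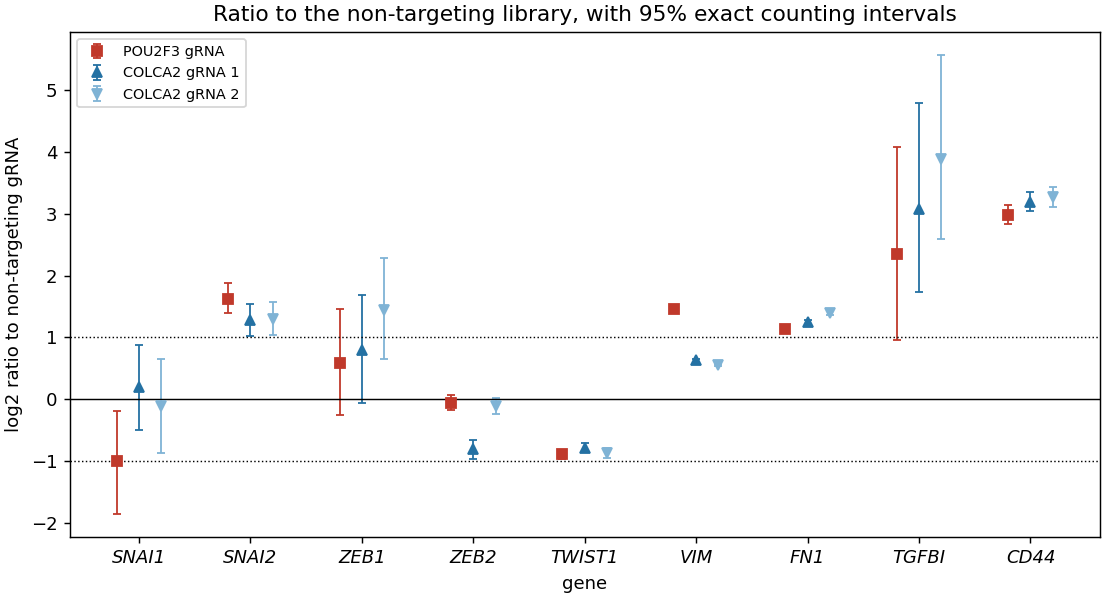
Log2 ratio to the control without a pseudocount for the 9 genes past the minimum; bars are 95% exact counting intervals and dotted lines mark 2-fold. VIM separates POU2F3 gRNA from both COLCA2 guides, ZEB2 separates COLCA2 gRNA 1 from the others, and SNAI1, ZEB1 and TGFBI have wide intervals.

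Among the factors past the minimum, SNAI2 (Slug), a repressor of E-cadherin, was the one at least 2-fold above the control in all perturbed libraries. SNAI2 (ENSG00000019549) lies on the minus strand of chromosome 8, from 48917604 to 48921740, and its normalized counts were 173 in the control, 534 after POU2F3 gRNA, and 421 and 426 after COLCA2 gRNA 1 and 2. The guides gave nearly the same value, and POU2F3 gRNA was highest. SNAI2 was 3.09-fold higher after POU2F3 gRNA (interval 2.61 to 3.66), with a mean log2 ratio of 1.29 ± 0.012 (SD, n = 2) for the guides. After POU2F3 gRNA it was 1.27-fold the level for COLCA2 gRNA 1 (interval 1.12 to 1.44) and 1.25-fold that for COLCA2 gRNA 2 (interval 1.10 to 1.43). KIRREL1 (0.089) and TRPA1 (0.11) were nearest in profile.

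TWIST1, a mesodermal basic helix-loop-helix factor, had its highest level in the control. TWIST1 (ENSG00000122691) lies on the minus strand of chromosome 7, from 19020991 to 19117672. Its normalized counts were 4114 in the control, 2222 after POU2F3 gRNA, and 2396 and 2249 after COLCA2 gRNA 1 and 2. The perturbed libraries lay within a narrow range, short of a 2-fold difference. TWIST1 stood at 0.540 of the control after POU2F3 gRNA (interval 0.514 to 0.567), 0.582 for COLCA2 gRNA 1 (interval 0.553 to 0.613) and 0.547 for COLCA2 gRNA 2 (interval 0.518 to 0.577). IL13RA1 (0.070) and DCDC2 (0.071) had the nearest profiles. Its relative TWIST2 (ENSG00000288335) had 1 read in the control, 5 after POU2F3 gRNA, and 4 and 2 after COLCA2 gRNA 1 and 2. The ratio for POU2F3 gRNA was 4.39 (interval 0.492 to 208), so no difference in TWIST2 was detectable at this depth.

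ZEB2 was the more abundant ZEB factor. ZEB2 (ENSG00000169554) lies on the minus strand of chromosome 2, from 144364364 to 144524583, and its normalized counts were 982 in the control, 945 after POU2F3 gRNA, and 562 and 911 after COLCA2 gRNA 1 and 2. COLCA2 gRNA 1 alone was low, at 0.572 of the control (interval 0.515 to 0.636), against 0.928 (interval 0.845 to 1.02) for COLCA2 gRNA 2 and 0.963 (interval 0.884 to 1.05) for POU2F3 gRNA. The guides' mean log2 ratio of -0.46 ± 0.49 (SD, n = 2) was smaller than its SD, so ZEB2 showed no difference beyond the spread between guides. AHSA2P (0.15) and PIK3CA (0.16) were nearest in profile.

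ZEB1, a repressor often linked to EMT in carcinoma, was measured on few reads. ZEB1 (ENSG00000148516) lies on the plus strand of chromosome 10, from 31318495 to 31529814. It had 20 reads in the control, 34 after POU2F3 gRNA, and 32 and 44 after COLCA2 gRNA 1 and 2, which gave normalized counts of 19.1, 28.5, 33.2 and 51.7. The control was lowest, but the ratio after POU2F3 gRNA was 1.49 (interval 0.836 to 2.74). It was 1.74 for COLCA2 gRNA 1 (interval 0.963 to 3.20) and 2.71 for COLCA2 gRNA 2 (interval 1.56 to 4.85), so ZEB1 passed 2-fold with the latter guide alone. COLEC12 (0.17) and HLA-F (0.22) had the nearest profiles.

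SNAI1 (Snail), the founding E-cadherin repressor of the family, also rested on few reads. SNAI1 (ENSG00000124216) lies on the plus strand of chromosome 20, from 49982999 to 49988886. It had 37 reads in the control, 21 after POU2F3 gRNA, and 39 and 28 after COLCA2 gRNA 1 and 2, which gave normalized counts of 35.3, 17.6, 40.4 and 32.9. POU2F3 gRNA alone was low, at 0.499 of the control (interval 0.277 to 0.875). Its log2 ratio with the pseudocount was -0.96, short of a 2-fold call, and the guides' mean was 0.045 ± 0.20 (SD, n = 2). KCNN4 (0.16) and STAMBPL1 (0.34) were nearest in profile.

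Levels of different genes were compared as normalized count per kb of the longest GENCODE transcript. The control already held abundant VIM, at 10991 per kb, rank 92 among the 14622 genes past the minimum with a GENCODE transcript length. Among the members, TWIST1 at 2469 and FN1 at 1026 followed. ZEB2 (102), CD44 (63.6) and SNAI2 (61.1) came next, the counting intervals of CD44 and SNAI2 overlapping. SNAI1 (21.0), ZEB1 (3.05) and TGFBI (1.02) closed the order, with overlapping intervals for ZEB1 and TGFBI. After POU2F3 gRNA the levels per kb were 30107 for VIM, 2260 for FN1, 1334 for TWIST1, 503 for CD44 and 189 for SNAI2. ZEB2 (98.6), SNAI1 (10.5), TGFBI (5.22) and ZEB1 (4.55) followed, the last pair with overlapping intervals. In all 3 perturbed libraries FN1 stood above TWIST1, and CD44 and SNAI2 stood above ZEB2.

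POU2F3 gRNA was also set directly against COLCA2 gRNA. Of the 10 members, 0 were 2-fold higher and 0 were 2-fold lower than with both guides, beside 0.442% and 0.924% of all genes. Between the guides 0 members differed 2-fold, beside 2.22% of all genes. VIM came nearest above, with log2 differences of 0.82 and 0.90 from guides 1 and 2. SNAI1 (-1.15 and -0.87) and TGFBI (-0.71 and -1.50) came nearest below, on few reads. At an adjusted p under 0.05, edgeR's quasi-likelihood test and DESeq2, run on the recovered reads, each called 1 member, VIM, beside 0.341% and 0.957% of all genes.

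Against the control, both tools called SNAI2, VIM, FN1 and CD44 higher and TWIST1 lower after POU2F3 gRNA, 5 members, beside 12.4% of all genes by edgeR and 8.86% by DESeq2. For COLCA2 gRNA both called these 5 and TGFBI, beside 18.9% and 12.6% of all genes. TGFBI entered the tested genes only through the perturbed libraries, so a difference was built into its call. The error of these tests rests on the COLCA2 pair, so they compare libraries and not conditions.

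Other mesenchymal genes were followed as a list (pairs of log2 ratios and medians from here on give POU2F3 gRNA first and the mean of the COLCA2 guides second). This list and those below were chosen with earlier results of these data known, so their shares are no independent test. Of 46 listed genes 39 passed the minimum, and 23 of them rose 2-fold after POU2F3 gRNA and 24 with both guides, beside 6.73% and 5.79% of all genes. In both comparisons 0 fell, beside 3.05% and 2.02% of all genes. AXL, CDH11, LUM and MYL9, 4 of these risers in both comparisons, had under 20 in the control and passed the minimum only through the perturbed libraries, so their rise was built into the count and the median. The median log2 ratios were 1.35 and 1.60, beside -0.0037 and -0.0086 over all genes. CDH2 (N-cadherin), which often replaces E-cadherin in EMT, had normalized counts of 965 in the control, 2467 after POU2F3 gRNA, and 1997 and 2143 after COLCA2 gRNA 1 and 2. TAGLN, an actin-binding protein of smooth muscle, had 108, 1614, 2742 and 2897 in the same order, and AXL, a receptor tyrosine kinase, had 9.55, 110.0, 192 and 246. Among genes of the list with a mean of at least 100, LOX, the collagen cross-linking oxidase, was lowest by the smallest of its ratios, with log2 ratios of -0.75 and -0.70 ± 0.14 (SD, n = 2).

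Epithelial genes did not fall together. Of 40 listed genes 38 passed the minimum, 7 rose 2-fold after POU2F3 gRNA and 8 with both guides, beside 6.73% and 5.79% of all genes. After POU2F3 gRNA 1 fell and with both guides 0 did, beside 3.05% and 2.02% of all genes. The median log2 ratios were -0.12 and 0.029. CDH1 (E-cadherin), the classic target of SNAI and ZEB repressors, had normalized counts of 747 in the control, 2126 after POU2F3 gRNA, and 2351 and 2537 after COLCA2 gRNA 1 and 2. CDH1 and CDH2 were thus both more than 2-fold above the control in every perturbed library. KRT8, a simple epithelial keratin, had 2530, 10023, 13262 and 14980 in the same order. The largest rises were those of CLDN4, a claudin (2.99 and 3.49 ± 0.14), and ELF3, an epithelial ETS factor (2.17 and 2.74 ± 0.099, SD, n = 2). OVOL2, a repressor of EMT factors, fell after POU2F3 gRNA (-1.02) and had -0.93 ± 0.26 for the guides, and CLDN1 had -0.89 and -0.59 ± 0.090 (SD, n = 2). OVOL1 of the same list rose instead, with 1.57 and 2.11 ± 0.22 (SD, n = 2).

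**Figure D3:**
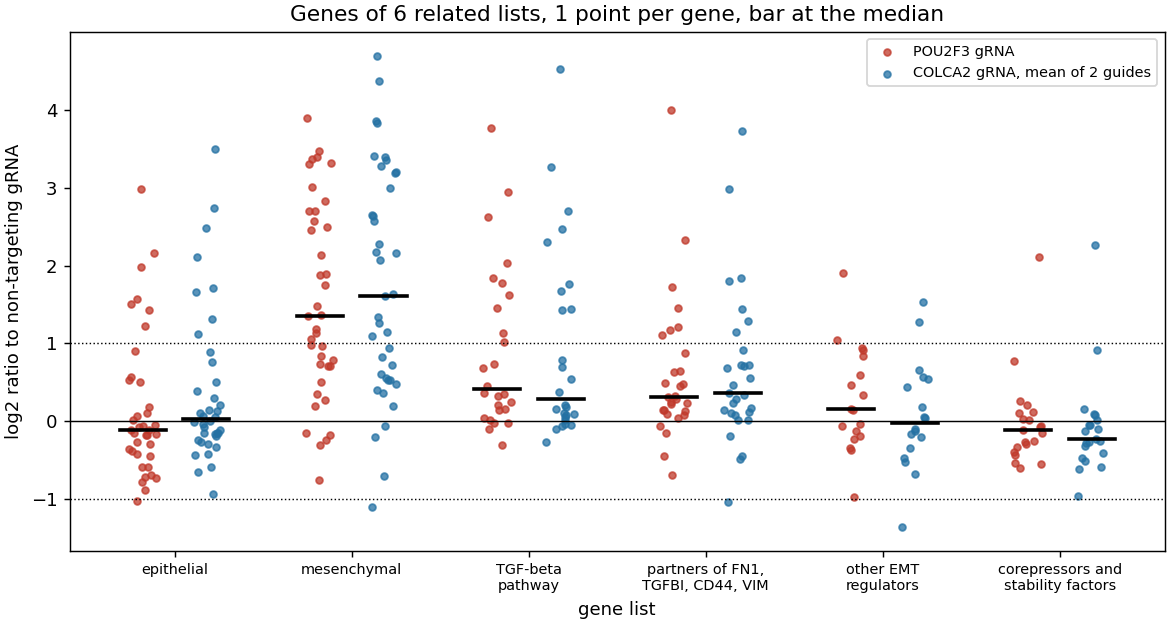
Log2 ratio to the control for the genes past the minimum in 6 lists, 1 point per gene, for POU2F3 gRNA and for the mean of both COLCA2 guides; black bars are medians. The mesenchymal list has medians of 1.35 and 1.60, and the epithelial list -0.12 and 0.029.

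Markers of cell types moved beside these rises. Of 10 fibroblast markers, 9 of them also in the mesenchymal list, 8 passed the minimum. Of these COL3A1, LUM and PDGFRB, 3 in all, were 2-fold higher in every perturbed library, beside 4.89% of all genes. LUM had under 20 in the control and passed the minimum only through the perturbed libraries, so its rise was built into the count. The 10 markers had a summed normalized count of 1979 in the control, 2735 after POU2F3 gRNA, and 3187 and 2828 after COLCA2 gRNA 1 and 2. COL1A1, a main fibroblast collagen, had 1136, 1002, 1186 and 1008, and COL1A2 and FAP were under the minimum. Of 5 endothelial markers 2 passed, with sums of 44.6 to 72.6 and KDR at 0. VWF, 1 of them, was 2-fold lower in every perturbed library (43.9, 15.9, 17.6 and 21.2). Its mean reached the minimum only through the control, so its fall was built into the count. Over all genes 3.05% were 2-fold lower after POU2F3 gRNA and 2.02% with both COLCA2 guides. Of 7 leukocyte markers 1 passed, with sums of 87.0 to 99.9 and CD3E at 0. All 5 epithelial markers are also in the epithelial list above, so their rises were already counted there. Of these 5 (sums of 12971, 28210, 34877 and 39450) 4 were 2-fold higher in every perturbed library, beside 4.89% of all genes. The other, EPCAM, a surface adhesion protein, was highest in the control, with 3986, 2463, 2945 and 3408. Of 8 tuft markers (sums of 40683, 9673, 14154 and 10460) 6 passed. Of these 6 fell after POU2F3 gRNA and 5 with both guides, beside 3.05% and 2.02% of all genes. That list holds the targeted POU2F3; without it 5 passed, 5 fell after POU2F3 gRNA and 4 with both guides, with sums of 26081, 8225, 10476 and 8109. TRPM5 and CHAT, defining tuft genes, were under the minimum in these cells. The part of these shifts in the rises of VIM, FN1, TGFBI and CD44 was not tested.

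The TGF-beta pathway was followed from ligands to targets. Of 29 genes 26 passed the minimum, 10 rose 2-fold after POU2F3 gRNA and 9 with both guides, beside 6.73% and 5.79% of all genes. In both comparisons 0 fell, beside 3.05% and 2.02% of all genes. Of these risers 2 had under 20 in the control and passed the minimum only through the perturbed libraries. The median log2 ratios were 0.41 and 0.29. The ligand TGFB2 had normalized counts of 46.8, 367, 459 and 457 in the order used above. SKIL, a repressor of SMAD proteins, was little changed, with log2 ratios of -0.30 and -0.096 ± 0.13 (SD, n = 2). With COLCA2 gRNA 1 its log2 ratio was -0.0015.

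A list of 36 genes around FN1, TGFBI, CD44 and VIM held integrins, hyaluronan enzymes, linkers to actin, filament partners and splicing factors. Of these 29 passed the minimum, 7 rose after POU2F3 gRNA and 7 with both guides, beside 6.73% and 5.79% of all genes. In both comparisons 0 fell, beside 3.05% and 2.02% of all genes. HAS3, which makes the hyaluronan that CD44 binds, had 48.7, 796, 630.3 and 683, and ITGB6, an integrin subunit that binds fibronectin, had 48.7, 248, 374 and 414. NES (nestin), which assembles with vimentin, had log2 ratios of -0.69 and -1.04 ± 0.062, and HMMR, a hyaluronan-binding protein, had -0.44 and -0.48 ± 0.024 (SD, n = 2).

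Other EMT regulators and the corepressors of the EMT factors were followed too. Of 20 regulators 18 passed the minimum, FOXC1 and RUNX2 (2 genes) rose in both comparisons, and SOX4 (1 gene) fell with both guides. Over all genes 6.73% and 5.79% were higher, and 2.02% were lower with both guides. FOXC1, a forkhead factor, had log2 ratios of 1.91 and 1.53 ± 0.058, and RUNX2 had 1.04 and 1.28 ± 0.11 (SD, n = 2). SOX4, an SRY-related factor, had normalized counts of 26921, 13736, 11105 and 9936. TCF4, an E protein partner of TWIST factors, had log2 ratios of -0.36 and -0.47 ± 0.24 (SD, n = 2). Of 21 corepressors and stability factors of SNAI, ZEB and TWIST proteins 21 passed, and LOXL2, an oxidase that binds SNAI1, was the 1 that rose, a share under that of all genes, with 2.11 and 2.26 ± 0.011 (SD, n = 2). PRKD1, a kinase, had 0.78 and 0.91 ± 0.086, LOXL3 had -0.61 and -0.95 ± 0.42, and FBXW7, a ubiquitin ligase subunit, had -0.55 and -0.61 ± 0.0024 (SD, n = 2).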

How the data were processed

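Poly(A) RNA libraries were made with the NEBNext Ultra II kit, per the labels' protocols. The submitters' processing notes name Salmon, DESeq2 and hg38, with no role or version, and the annotation is not given in the sources used here. Per the file headers the authors deposited a linear signal, the normalized count of each gene. All values (100%) were whole multiples of 1 step per library within 1e-06, from which whole reads were recovered. Rows with the same symbol were summed.

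Genes with a mean of at least 20 were kept. Calls are 2-fold differences with no test, since 2 of 3 groups held 1 library, and COLCA2 calls needed both guides. On the recovered reads, edgeR 4.0.16 (quasi-likelihood, TMM, 3 groups, Benjamini-Hochberg at 0.05) called 1858 genes for POU2F3 gRNA, 2831 for COLCA2 gRNA and 51 between them, and DESeq2 1.42.0 was run as well. Scripts were tested on simulated data. Positions came from GENCODE release 29 by gene identifier, without a match for TWIST2. Antisense genes overlap ZEB1, ZEB2, TWIST1, VIM and CD44 and were not analysed here, and use of the strand is not stated. RefSeq promoters matched 7 of the 10 members; promoter bases inside the annotated gene are not printed.

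Members and lists were chosen with earlier results of these data known. Named genes are the members, the targeted genes, CDH1, CDH2, the 2 largest rises and falls of each list among genes with a mean of at least 100 (ranked by the smallest of the 3 ratios) and the 2 nearest profiles of each member. Cell type markers are named beside their lists, and OVOL1 beside OVOL2. An item that this rule would name is not reported here.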

Additional observations from a re-analysis of the deposited data

How the results depend on the processing

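No paired analysis was possible because replicate numbers occur in the COLCA2 group alone. Of 220 recomputed member ratios (other scalings, pseudocounts, values per row, or a guide left out), 204 stayed within 1 SD between the guides and 16 moved beyond it. Of those that had passed 2-fold, 0 changed sign. The count of 204 is in part fixed by the settings. Median-of-ratios scaling and values per row gave the same ratios again, and leaving out a guide shifts the guides' mean by less than their SD. Expression minimums and fold thresholds do not enter a ratio. Equal-total, TMM and median-of-ratios scaling shifted member ratios by at most 0.069 and left the members' counts of calls at 5, 4 and 0. Counts that moved beyond 1.5 times were the following. Without an expression minimum, 4190 genes were 2-fold apart for POU2F3 gRNA (1460 as reported), 2885 for COLCA2 gRNA (1167) and 1603 between the targets (204), and with a minimum of 100 they were 864, 757 and 73. At 1.5-fold they were 2971, 2352 and 660, with 3 members (SNAI1, VIM and TGFBI) between the targets. At 4-fold they were 478, 390 and 39, with 2 members (TGFBI and CD44) for POU2F3 gRNA and 2 for COLCA2 gRNA. By edgeR they were 2831 for COLCA2 gRNA and 51 between the targets, and by DESeq2 1877 for COLCA2 gRNA, with 1 member (VIM) between the targets by each tool. Leaving out a guide gave 460 to 473 genes between the targets and 1 member, TGFBI without guide 1 and SNAI1 without guide 2, and without guide 1 ZEB1 also passed 2-fold for COLCA2 gRNA. Only the thresholds or the samples differ in these settings, except for the tools, where the cause was not tested. Members called by edgeR and DESeq2, and the motifs other than the octamer and E-boxes, were chosen after seeing the data. Depth limits SNAI1, ZEB1, TGFBI and TWIST2, which had at most 60 reads in any library.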
